A study of Mus musculus with 31 samples.

Results

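The 356 sites described here are stretches of open chromatin on the mouse X chromosome that the authors classed as accessible on the active X only, out of 1556 X-linked sites in 6 lists of accessibility and of BRG1 binding. They were chosen by allele-specific ATAC-seq, an assay in which a transposase cuts open DNA. The list gives coordinates on mm10 and no score, so the accessibility that chose the sites is not reported, and neither are sites just inside or outside the authors' threshold. Of 1058 X-linked genes in the deposited RNA table, 184 started no farther than 1 kb from a site. The list was taken whole, and no RNA value was used here to choose sites or genes.

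The study removed Xist, the RNA that coats the inactive X, from female mouse fibroblasts of a CAST/Ei x 129/Sv/Jae hybrid, in which reads over differing bases can be assigned to a parental X. Its 31 samples comprised 17 of ATAC-seq, 8 of ChIP-seq and 6 of RNA-seq. RNA was measured in dermal fibroblasts labelled wild type (WT), in cells with a wild-type active X and Xist deleted on the inactive X (XaWT XiΔXist, line 1), and in a second such line (XaWT XiΔXist #2, line 2), with 2 biological replicates each (n = 2). The labels name no treatment of these cells. Sites of accessibility were classed, per the labels, from dermal fibroblasts of WT and line 1 together with WT embryonic fibroblasts, and BRG1 sites from the dermal cells alone. Each deletion is represented by 1 line, so a difference of a line from WT and an effect of the deletion cannot be told apart.

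In female mammals 1 X chromosome in each cell is silenced early in development, and its promoters lose accessibility while those of the active X stay open. Xist RNA starts this silencing and keeps repressive complexes on the chromosome. Some genes escape and are transcribed from both copies. BRG1 is the ATPase of SWI/SNF, a complex that moves nucleosomes and opens chromatin at promoters and enhancers.

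Depth and identity of the RNA libraries were as follows. Between 3812311 and 7067525 exon counts per library entered the fits, and replicate 1 was the shallower in every group. Levels are CPM, counts scaled to equal TMM-adjusted library totals. Xist had 633 and 429 CPM in WT, with 1.08 and 0.273 for line 1 and 0.969 and 0.282 for line 2. All 10 fibroblast markers were detected in every library (summed level 4505 to 7202 CPM). The 4 keratinocyte markers summed to at most 0.960 CPM, the 5 leukocyte markers to 6.96 to 19.9 CPM, the 4 endothelial markers to 2.43 to 8.32 CPM and the 4 melanocyte and Schwann cell markers to 6.00 to 10.6 CPM.

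Promoter sequences from RefSeq (GRCm38.p6) show what these sites look like at the letter level. They were available for 151 of the 184 genes, in windows from 250 bases before to 50 after a start, and 140 genes had a window that overlapped a site, by a median of 266 bases. The 6 printed first are the upstream parts that lie inside a site, for the genes with the highest RNA per length (Flna, Tmsb4x), genes with reads from both alleles (Nono, Naa10), the gene whose allele balance changed (Sh3kbp1) and the gene whose RNA rose most in line 1 (Sat1). Each is read along the gene, from chrX:74246535-74246629 for Flna (minus strand), chrX:167209219-167209379 for Tmsb4x (minus), chrX:101429401-101429650 for Nono (plus), chrX:73921945-73922084 for Naa10 (minus), chrX:159627178-159627271 for Sh3kbp1 (plus) and chrX:155216450-155216699 for Sat1 (minus). Capitals mark matches, on either strand, to the GC box, spelt GGGCGG, to the CCAAT box, spelt as its name, or to an ETS motif, spelt CCGGAAG.
Flna: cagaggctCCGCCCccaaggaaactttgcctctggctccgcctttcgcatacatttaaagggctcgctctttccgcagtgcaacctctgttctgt
Tmsb4x: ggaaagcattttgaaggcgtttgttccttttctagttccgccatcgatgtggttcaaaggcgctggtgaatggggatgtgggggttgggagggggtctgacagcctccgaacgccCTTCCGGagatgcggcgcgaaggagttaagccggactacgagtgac
Nono: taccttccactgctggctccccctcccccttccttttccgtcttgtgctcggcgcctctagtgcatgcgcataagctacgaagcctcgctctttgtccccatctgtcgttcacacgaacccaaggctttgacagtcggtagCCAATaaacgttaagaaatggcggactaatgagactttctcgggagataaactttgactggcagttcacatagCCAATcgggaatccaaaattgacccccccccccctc
Naa10: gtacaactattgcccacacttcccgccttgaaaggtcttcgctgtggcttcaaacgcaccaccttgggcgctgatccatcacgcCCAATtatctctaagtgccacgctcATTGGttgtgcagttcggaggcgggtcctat
Sh3kbp1: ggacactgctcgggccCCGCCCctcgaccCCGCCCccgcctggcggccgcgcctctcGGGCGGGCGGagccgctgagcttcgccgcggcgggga
Sat1: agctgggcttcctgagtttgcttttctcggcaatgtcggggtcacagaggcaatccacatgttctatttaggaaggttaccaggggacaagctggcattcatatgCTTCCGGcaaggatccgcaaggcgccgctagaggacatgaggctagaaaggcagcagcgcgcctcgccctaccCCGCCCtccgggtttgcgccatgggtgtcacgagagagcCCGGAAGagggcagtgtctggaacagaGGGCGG

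The upstream stretch of Sh3kbp1 was the richest in G and C of the 6, at 84.0% with 16 CpG in 94 bases and 4 GC box matches. Nono and Naa10 had 53.2% and 54.3%, with 2 CCAAT matches each and no GC box. The stretch of Sat1 held 2 GC box and 2 ETS matches, that of Tmsb4x 1 ETS match and that of Flna 1 GC box match. Other sites cover the bases between 2 genes transcribed away from each other. Those between Kif4 and Pdzd11 (chrX:100625908-100626064) and between Smc1a and Ribc1 (chrX:152016296-152016427) are given on the plus strand with the same marks, as examples of 1 site spanning the starts of 2 genes.
Kif4 and Pdzd11: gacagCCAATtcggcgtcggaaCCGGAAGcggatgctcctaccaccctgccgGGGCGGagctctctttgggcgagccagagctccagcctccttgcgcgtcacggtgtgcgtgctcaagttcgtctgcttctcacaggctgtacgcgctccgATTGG
Smc1a and Ribc1: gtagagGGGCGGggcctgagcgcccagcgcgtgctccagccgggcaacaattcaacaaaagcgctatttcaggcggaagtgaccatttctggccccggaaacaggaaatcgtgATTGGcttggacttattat

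Over all 140 promoters the median GC content was 60.7% and the median ratio of observed to expected CpG 0.727, close to promoters of all genes tested for RNA (61.3% and 0.771) and above other X-linked genes tested (57.7% and 0.668). The search covered 8 motifs on both strands with overlaps allowed, namely the 3 above, NRF1 (GCGCATGCG), YY1 (AAGATGGCG), CRE (TGACGTCA), AP-1 (TGANTCA) and the TATA box (TATAAA). A GC box match stood in 69.3% of the 140 promoters, against 62.2% of other tested X-linked genes, 65.6% of all tested genes and 35.9% of all promoters in the table. A CCAAT match stood in 52.1%, against 40.9%, 39.3% and 37.9% in the same order, and an ETS match in 17.1%, against 10.9%, 18.3% and 9.12%. The TATA box was matched in 7.14% (11.9%, 6.71% and 14.2%), NRF1 in 5.00% (3.63%, 3.799% and 1.81%) and YY1 in 4.29% (4.66%, 3.28% and 1.49%). AP-1 was matched in 2.14% (3.63%, 4.92% and 7.93%) and CRE in 1.43% (2.07%, 3.37% and 1.88%). These letters describe windows and name no bound factor.

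The sites fell into a promoter group and a distal group of nearly equal size. Of 356 sites, 182 (51.1%, exact 95% binomial interval 45.8 to 56.4) lay within 1 kb of a gene start, 68 (19.1%, 15.1 to 23.6) inside a gene farther from any start and 106 (29.8%, 25.1 to 34.8) between genes. A start lay within the site itself at 142. Sites at starts were also longer, with a median of 398 bases against 278 inside and 278.5 between genes, over a range of 115 to 1042 bases in all. The 5 longest sites, all at starts, belonged to Zfp300 (chrX:21088841-21089882), the MSL complex subunit Msl3 (chrX:168673423-168674431), Amer1 (chrX:95444182-95445130), the amine oxidase Maoa (chrX:16618153-16619060) and the deubiquitinase Usp9x (chrX:13070641-13071518).

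**Figure D1:**
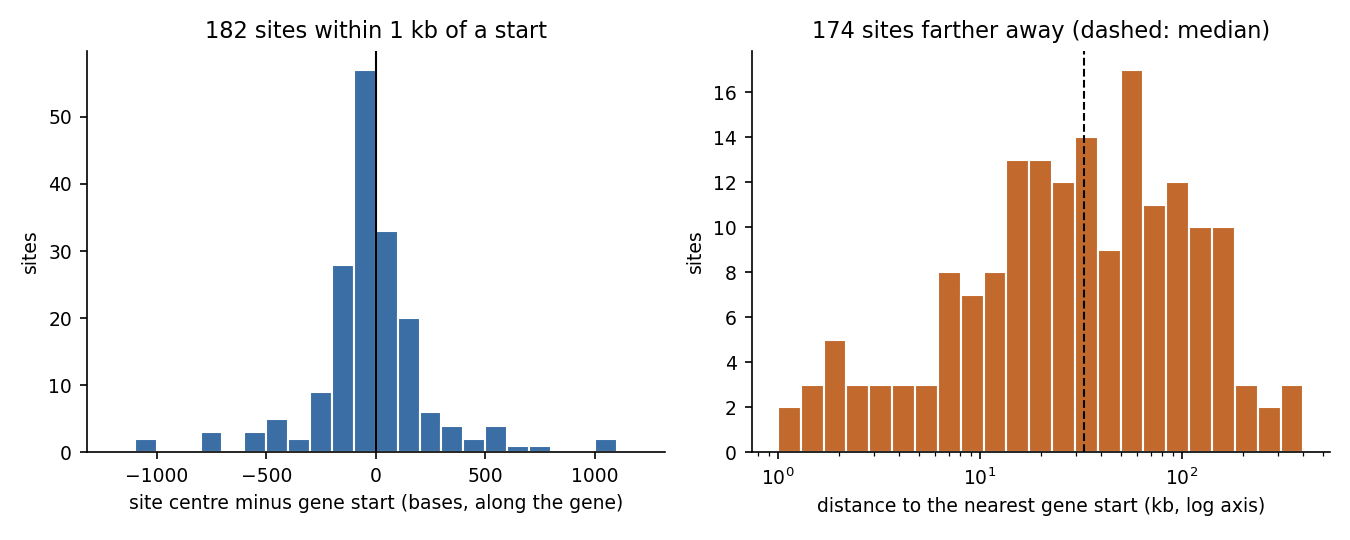
Histograms of the distance between sites and gene starts: left, 182 sites within 1 kb, as the site's centre minus the start in bases along the gene; right, the other 174 sites, in kb on a log axis with the median dashed. Centres pile up around the start (median -29 bases), and the distal sites spread around a median of 33.0 kb.

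Site centres near a start lay on both sides of it, more of them upstream. The median offset was -29 bases (quartiles -117 and 77.9), 109 of 182 centres were upstream and 147 lay within 250 bases. The 174 distal sites lay a median of 33.0 kb from the nearest start (quartiles 12.3 and 72.9 kb), with 36 within 10 kb and 32 beyond 100 kb. The 1 kb limit split few sites: the last one inside was 947 bases from Rps6ka3 (chrX:159254721-159254835) and the first outside 1154 bases from Msl3 (chrX:168672526-168672748). The most remote site, at chrX:157028958-157029313, was 386 kb from the nearest start, that of Phex.

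Along the chromosome the sites ran from chrX:6252981 to chrX:169879736 with uneven spacing. The median gap was 101.7 kb (quartiles 25.5 and 301.7 kb). The window from 160 to 170 Mb held 60 sites (16.9% of all), 27 of them at starts, for 30 genes with testable RNA. That from 70 to 80 Mb held 37 sites for 66 such genes, and that from 140 to 150 Mb held 36 sites, of which 29 were distal, for 16. The longest gap, chrX:109095702-134059032 (24.96 Mb), held 42 genes, of which 10 had testable RNA, and 10 BRG1 sites of the active X. The next, chrX:22469414-36115219 (13.6 Mb), held 38 genes with 5 testable. The site nearest to the start of Xist was 498 kb away, at Rlim, which encodes a ubiquitin ligase that promotes Xist expression.

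Most sites, 260, stood alone. With neighbours up to 10 kb apart joined, 96 sites formed 46 groups, 42 pairs and 4 triples, and 30 of the groups contained a site at a start. The triples lay at Eda2r, a receptor for ectodysplasin, at Kantr and Tspyl2, at the start of the kinase gene Rps6ka3, and around Vegfd, a lymphatic growth factor, and its neighbour Pir. At Rps6ka3 all 3 sites were within 1 kb of the start, whereas at Eda2r and Vegfd 1 site marked the start and the other two lay 4025 and 7669 bases from it at the former and 7758 and 8366 bases at the latter. Such close pairs at one start are not independent sites. The count of groups depends on the limit, with 33 at 5 kb and 79 at 50 kb.

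The 68 distal sites inside genes lay in 50 genes, of which 11 held at least 2 each. Sh3kbp1, an adaptor of receptor endocytosis, held most, with 5 inside its 348.6 kb besides 1 at its start, and 50 BRG1 sites of the active X. Trpc5, a cation channel, held 4 distal sites, and Dmd (dystrophin), Frmpd4 and Phex, an endopeptidase of phosphate balance, held 3 each. These genes are long, at 311 kb for Trpc5, 2256 kb for Dmd, 1106 kb for Frmpd4 and 253 kb for Phex. The counts were not scaled by length. Among these genes the RNA of Trpc5 and Frmpd4 was at or below 1.26 CPM in every library, so distal sites also lay in genes with almost no RNA. Phex had 4.80 and 11.8 CPM in WT, with 57.0 and 73.6 for line 1 and 4.60 and 11.0 for line 2. Only the line 1 libraries were high, without overlap, and edgeR called the rise (log2 fold change 2.92, SE 0.50, adjusted p = 0.0133; 0.0577 without WT replicate 1, and at most 0.0258 without each other library in turn). The start of Phex has no site within 1 kb, so Phex is outside the 184 genes.

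Sites at starts were a larger share of this list than of the BRG1 lists and of accessibility restored without Xist. Sites at starts made up 51.1% here, 40.7% (11 of 27, interval 22.4 to 61.2) of sites accessible on both X chromosomes and 13.5% (5 of 37, 4.54 to 28.8) of sites classed as restored on the inactive X. In the BRG1 lists the shares were 8.12% (72 of 887), 8.33% (5 of 60) and 4.76% (9 of 189) in the same order. The interval of this list overlapped that of the small list accessible on both X chromosomes and none of the remaining lists. These intervals treat sites as independent draws, which neighbours are not.

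**Figure D2:**
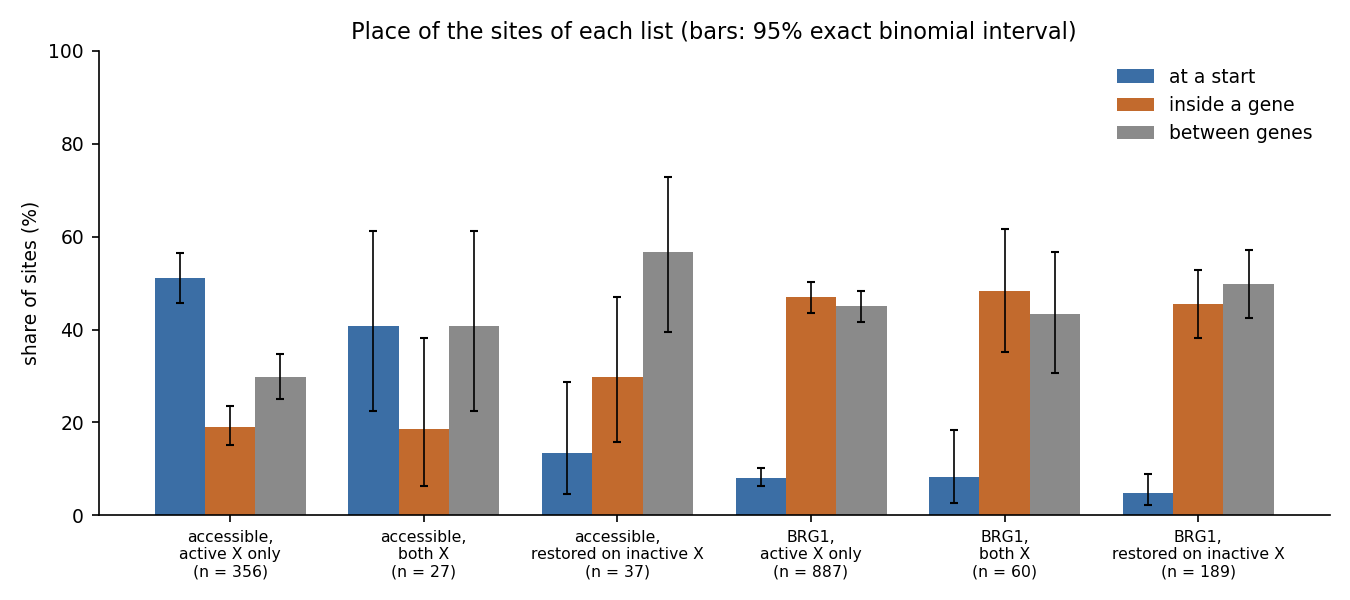
Share of sites (%) at a gene start, inside a gene and between genes in each of the 6 lists, with 95% exact binomial intervals. Starts make up 51.1% of the sites accessible on the active X only and at most 8.33% of any BRG1 list.

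Overlap of at least 1 base with BRG1 of the active X was found at distal sites and hardly at starts. At least 1 base was shared with a BRG1 site by 76 of 356 sites (21.3%), and by 89 of 887 BRG1 sites (10.0%). Among sites at starts the overlap was 6 of 182 (3.30%, interval 1.22 to 7.04), inside genes 26 of 68 (38.2%, 26.7 to 50.8) and between genes 44 of 106 (41.5%, 32.0 to 51.5). The 6 overlapping start sites lay at Fundc1, Eda2r, Prps1, Eif1ax, Pir and Vegfd. The shared stretch was short, with a median of 67 bases or 22.2% of the site. Most overlaps therefore covered a small part of the site, and 9 sites shared at least 50% of the shorter interval. A BRG1 site lay within 1 kb of 173 sites, a count that was not split by place. Of the 887 BRG1 sites, 72 lay within 1 kb of a gene start. No site overlapped the other 4 lists. Those of accessibility are other classes of the same assay, so the absence of overlap with them may follow from the classing alone.

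**Figure D3:**
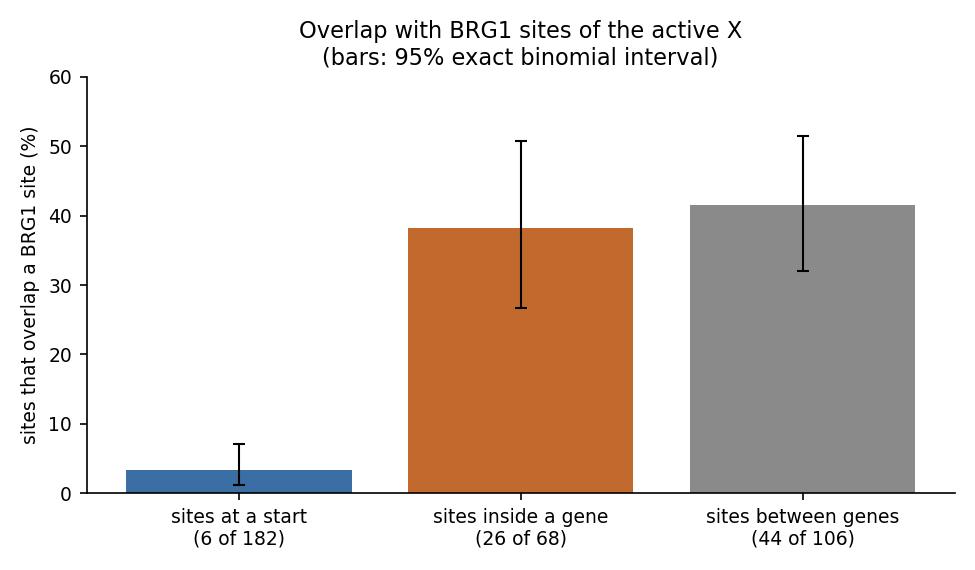
Share of the 356 sites (%) that overlap a BRG1 site of the active X by at least 1 base, by the place of the site, with 95% exact binomial intervals. Start sites stand at 3.30%, below 38.2% inside genes and 41.5% between genes. BRG1 sites that lie beside a site without touching it are not counted.

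Genes at the sites were nearly all expressed. Of the 415 X-linked genes with enough RNA to test, 175 (42.2%) had a site at the start, against 9 of 643 (1.40%) of the rest. Those 9 were Apoo, Apoo-ps, Cited1, Fam46d, Fmr1os, Gm14858, Plac1, Rbm3os and Snord61, and each except Plac1 shared its site with another gene. Apoo shared its site only with Apoo-ps and Cited1 only with Gm14858, so these sites, like that of Plac1, had no tested gene. In WT the median level of the 184 genes was 13.5 CPM per kb of exon (quartiles 5.61 and 28.5), against 0.0185 for the other 874 X-linked genes. Among tested genes alone the medians were 14.1 and 9.62, with 13.5 and 15.2 for genes at sites and 9.39 and 10.1 for the others in the 2 WT libraries. Most genes at sites had RNA, but 240 tested genes had no site within 1 kb of the start. They included 13 of the 20 X-linked genes with the highest levels. Of these 13, Hcfc1 and Bex3 had a site 1164 and 2200 bases from the start. Absence from this list is not absence of open chromatin.

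The 8 highest genes at sites covered several roles. Flna, which encodes the actin crosslinker filamin A, had 1541 and 1419 CPM in WT and 177 CPM per kb, and the actin-sequestering thymosin Tmsb4x 124 and 113 CPM and also 177 CPM per kb. They were followed by Wbp5 (94.0 CPM per kb), the peroxidase Prdx4 (91.0), Maged2 (80.2), the proton pump subunit Atp6ap1 (77.7), the chromatin factor Morf4l2 (77.2) and the initiation factor Eif1ax (72.6). RNA of Flna was 1364 and 1124 CPM in line 1 and 1499 and 1273 in line 2, and that of Tmsb4x 105 and 85.4 and then 124 and 109. Line 1 lay below WT in both genes, but neither difference passed the test (adjusted p by edgeR of 0.451 at a log2 fold change of -0.25, and of 0.226 at -0.32). With the replicate block both passed (0.0472 and 0.0280).

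Some sites lay at the start of more than 1 gene. Of the 182 start sites 162 had 1 gene, 19 had 2 and 1, at Brcc3, Cmc4 and Mtcp1, had 3. At 16 of these 20 shared sites the genes lie on opposite strands, and at 13 they diverge. Partners could differ widely in RNA: Smc1a, a cohesin subunit, had 65.7 CPM per kb in WT and its partner Ribc1 0.761, whereas the kinesin Kif4 had 38.9 and Pdzd11 45.0. The sources used here do not say whether exons were counted by strand, so values of genes that overlap an antisense transcript, such as Rbm3 with Rbm3os and Ppp1r3f with Ppp1r3fos, or that hold other genes, such as Cask with Gpr34 and Gpr82, are uncertain. In turn 18 genes had more than 1 site: Rps6ka3 had 3, and those with 2 each included Alg13, Ap1s2, Fam199x, Fundc1, Gk, Maoa, Morf4l2, Otud5, Rbm3, Rbm3os, Rpl10, Tab3, Tmem47, Zmat1 and Zrsr2.

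The 6 lists of X-linked genes differed in how many members had a site. Sites stood at 20 of 35 tested genes of mitochondria and metabolism, among them Hprt of purine salvage and Pdha1 of pyruvate dehydrogenase, at 11 of 31 chromatin and transcription regulators, among them Hdac6 and Smc1a, and at 13 of 33 genes of ubiquitin, RNA and translation. The other counts were 11 of 41 matrix, cytoskeleton and signalling genes, 5 of 20 escape genes and 1 of 7 genes of the X-inactivation centre, which was Rlim. Over all tested X-linked genes the share was 42.2%, and the lists have no test of their own. The 5 genes of the escape list were Mid1, Usp9x, Shroom4, Car5b and Gemin8. Membership of that list is not a measure of escape in these cells.

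RNA of most genes at these sites passed the test in neither line without Xist. In these bulk samples fewer cells of a type and less RNA per cell cannot be told apart. The median log2 fold change over the 175 tested genes was 0.06 in line 1 and -0.02 in line 2, against 0.01 in both over all genes, and 145 and 163 of the genes stayed within 0.5 on the log2 scale. In line 1, 10 of 175 were called (5.71%; 6 higher, 4 lower), below the background of 14.3% of all 12910 tested genes (6.75% higher, 7.55% lower) and 15.2% of tested X-linked genes. Line 1 was among the cells from which the sites were classed, so this share in line 1 is not independent of the list. In line 2, 1 of 175 was called (0.571%), against 3.58% of all genes (1.73% higher, 1.85% lower) and 4.82% of X-linked genes. By edgeR and by DESeq2 0 genes were higher there, although 4 had a higher level at an unadjusted p under 0.05. With the replicate number as a block, which pairs the libraries, the calls rose to 41 (20 higher, 21 lower) in line 1 and 9 (4 higher, 5 lower) in line 2, where the background was 32.4% and 12.1%. DESeq2 called 7 of the 10 genes of line 1, without Gemin8, Fam120c and Mtm1, and 5 of the 10 were called with only the compared groups. Without either WT library or either line 2 library fewer genes were called in line 1, and without line 1 replicate 1 more were. The call in line 2 was lost without either WT or either line 2 library, and more genes were called without either line 1 library. The share of all genes called is not given for DESeq2, for only the compared groups or for the fits without a library.

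Among the genes called higher in line 1, Sat1, which encodes the polyamine acetyltransferase, changed most. It had 19.96 and 15.8 CPM in WT, with 50.3 and 41.4 for line 1 and 17.7 and 15.2 for line 2, so only line 1 stood apart (log2 fold change 1.36, SE 0.21, adjusted p = 0.00999; 0.0823 without WT replicate 2). Gemin8, a subunit of the SMN complex that assembles spliceosomal particles, had 4.30 and 3.84 CPM in WT, with 9.46 and 8.05 for line 1 and 6.06 and 5.78 for line 2. Both lines lay above WT, and line 1 was called (1.10, SE 0.26, adjusted p = 0.0400, and 0.203 by DESeq2). Ppp1r3f, a glycogen-targeting subunit of protein phosphatase 1, had 12.6 and 13.9 CPM in WT, with 29.5 and 27.0 for line 1 and 12.6 and 11.1 for line 2 (line 1 1.08, SE 0.19, adjusted p = 0.0157).

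The scaffold kinase Cask had 143 and 155 CPM in WT, with 324 and 269 for line 1 and 167 and 182 for line 2 (line 1 0.99, SE 0.14, adjusted p = 0.00659; 0.0662 without WT replicate 1). Fam120c had 42.7 and 41.1 CPM in WT, with 60.5 and 70.0 for line 1 and 41.9 and 36.9 for line 2 (0.64, SE 0.15, adjusted p = 0.0391, and 0.0565 by DESeq2). Timp1, an inhibitor of matrix metalloproteinases that lies inside Syn1 on the other strand, had 57.6 and 56.5 CPM in WT, with 93.3 and 80.0 for line 1 and 65.2 and 67.8 for line 2 (0.60, SE 0.13, adjusted p = 0.0319). In all 6 genes the line 1 libraries lay above both WT and both line 2 libraries. The calls on Gemin8, Ppp1r3f, Fam120c and Timp1 were lost without either WT library (adjusted p of 0.0972 to 0.266), and those on Gemin8, Fam120c and Timp1 also without either line 2 library. With only the compared groups Gemin8, Fam120c and Timp1 were lost (0.0897 to 0.102). Gemin8 and Timp1 were also lost without line 1 replicate 1, and Gemin8 and Fam120c without line 1 replicate 2.

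Among the 4 genes called lower in line 1, Rnf128 was called lower in line 2 as well. Rnf128, a ubiquitin ligase known from T cell anergy, had 15.2 and 18.2 CPM in WT, with 4.87 and 5.60 for line 1 and 5.57 and 4.94 for line 2. Both lines stood at about the same level below WT (log2 fold change -1.66, SE 0.25, adjusted p = 0.00811, and -1.68, SE 0.25, adjusted p = 0.0240), and both comparisons use the same WT libraries. Mtm1, the phosphoinositide phosphatase myotubularin, had 14.1 and 14.9 CPM in WT, with 6.76 and 6.82 for line 1 and 6.54 and 6.91 for line 2. It was called in line 1 (-1.09, SE 0.22, adjusted p = 0.0229), but not by DESeq2 (0.0810) or with only the compared groups (0.0660). In line 2 it was not called (-1.11, SE 0.22, adjusted p = 0.0526; 0.175 by DESeq2), whereas the replicate block gave 0.0101 and only the compared groups 0.0372.

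Vegfd had 39.2 and 39.7 CPM in WT, with 20.8 and 19.8 for line 1 and 33.4 and 30.6 for line 2 (line 1 -0.96, SE 0.16, adjusted p = 0.0127). Tmem164 had 193 and 189 CPM in WT, with 139 and 139 for line 1 and 200.4 and 200.6 for line 2 (line 1 -0.46, SE 0.10, adjusted p = 0.02999). Line 1 lay below the other groups in both. The calls on Mtm1, Vegfd and Tmem164 in line 1 were lost without either WT library (adjusted p of 0.0809 to 0.200), and that on Rnf128 without WT replicate 2 (0.0843). That on Tmem164 was lost with only the compared groups (0.0957). Those on Mtm1 and Tmem164 were also lost without either line 2 library, and that on Mtm1 without line 1 replicate 2.

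**Figure D4:**
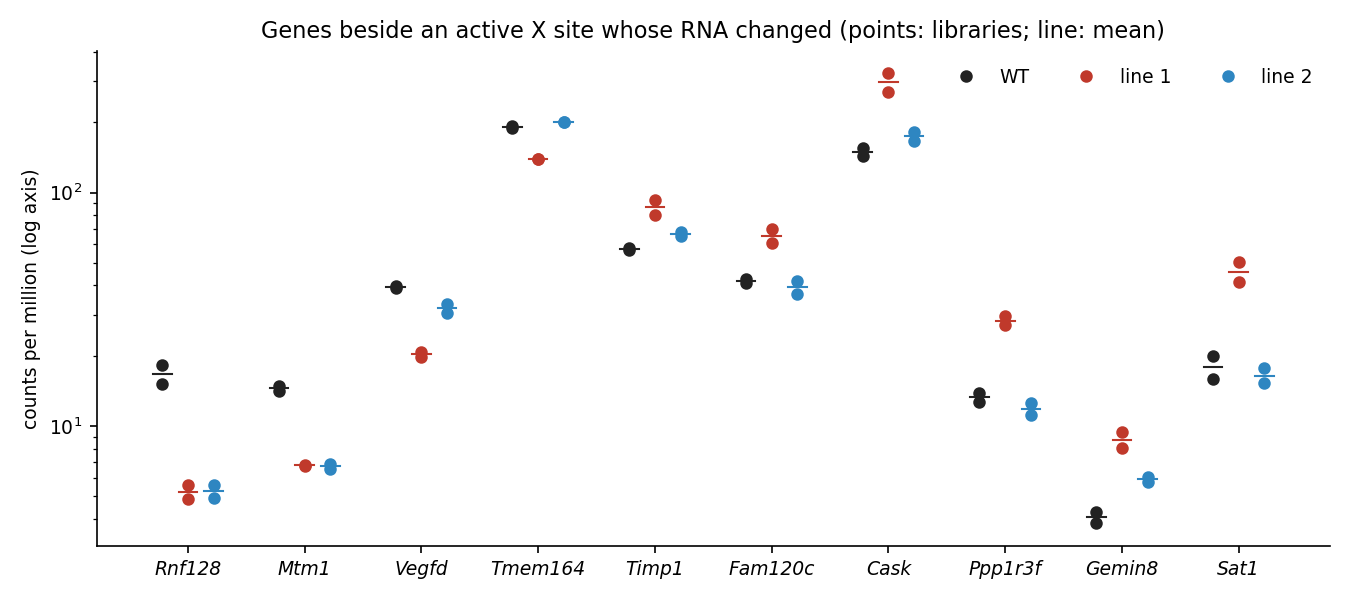
RNA level in CPM (log axis) of the 10 genes at a site whose RNA was called in line 1, in each of the 6 libraries (points) with group means (lines), ordered by log2 fold change in line 1. The genes were chosen by that call, so the gap between line 1 and WT follows from the choice. Line 2 lies with line 1 at Rnf128 and Mtm1.

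The 2 lines differed from each other at 12 of the 175 genes (6.86%), against 12.6% of all genes and 16.1% of X-linked genes. At Sat1, whose levels are given above, the log2 difference of line 2 minus line 1 was -1.48 (SE 0.21, adjusted p = 0.00788; 0.0763 without line 2 replicate 2). Mid1, a microtubule-associated ubiquitin ligase that escapes in some tissues, had 54.3 and 54.9 CPM in WT, with 39.7 and 30.2 for line 1 and 75.8 and 63.2 for line 2. The lines lay on opposite sides of WT, with line 2 the higher (log2 difference 1.00, SE 0.19, adjusted p = 0.0192; 0.129 and 0.0666 without line 2 replicate 1 and 2).

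The gene lists held 3 of the 10 genes called in line 1. Of the genes with a site, Sat1 alone was called among 20 of mitochondria and metabolism, Timp1 among 11 of matrix, cytoskeleton and signalling and Gemin8 among 5 of the escape list, all higher in line 1. They were 3 of 57 listed genes with a site (5.26%, against 14.3% of all and 15.2% of X-linked genes), of which DESeq2 called 2, and 9 had an unadjusted p under 0.05. In line 2, edgeR and DESeq2 called 0 of the 57 (against 3.58% and 4.82%), and 4 had an unadjusted p under 0.05. With the replicate block 16 of the 57 were called in line 1 (8 higher, 8 lower; 28.1% against 32.4% of all genes) and 3 in line 2 (1 higher, 2 lower; 5.26% against 12.1%). Under that block Mid1, of the escape list, was called lower in line 1 (log2 fold change -0.68, adjusted p = 0.00933, against 0.0688 without it). Its mus share in WT, given below, was low.

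Allele reads were available for 111 of the 184 genes at sites. The authors' table gives reads of the 129 (mus) and CAST (cas) allele for 205 X-linked genes with at least 10 cas reads in every library, so genes entered the table through their cas reads and the shares describe no other genes. Its lowest value is 0.5, and the sources used here do not say whether that stands for 0. Of 186 genes the authors classed Monoallelic 103 (55.4%) had a site, and of 19 classed Biallelic 8 (42.1%, exact interval 20.3 to 66.5). Of the 103 genes 62 and 47 were at the lowest value in the WT libraries, 67 and 41 in those of line 1 and 59 and 40 in those of line 2. A median mus share, 2.00% and 1.69% in WT, is therefore at or near what the lowest value gives at the cas depth, and no difference between groups is read from it. At the lowest value in both WT libraries were 43 genes, and 11 had 5% or more in WT, led by Prdx4 (13.9% and 13.0%), the dyskerin gene Dkc1 (8.85% and 11.4%) and the renin receptor gene Atp6ap2 (12.8% and 8.79%).

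The 8 Biallelic genes had a site classed as open on the active X only and reads from both alleles. Morf4l2 was the extreme, with more mus than cas reads in every library: its mus share was 74.3% and 68.4% in WT, with 68.2% and 67.6% for line 1 and 63.7% and 66.4% for line 2, from 70.0 to 163.5 reads. The splicing factor gene Nono had 36.5% and 38.8% in WT, with 35.3% and 47.3% for line 1 and 36.8% and 44.5% for line 2. Naa10, the catalytic subunit of an N-terminal acetyltransferase, had 35.6% and 42.5%, 26.3% and 34.0%, and 33.3% and 32.2% in the same order. Wbp5 had 34.2% and 37.3%, 34.3% and 39.1%, and 33.6% and 41.6%.

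The remaining 4 genes had mus shares between 22.6% and 38.0%. Cxx1b stood at 30.5% and 38.0% in WT, with 25% and 36.0% for line 1 and 33.8% and 32.5% for line 2. Timm17b, a subunit of the mitochondrial import channel, had 37.5% and 27.3%, 25.5% and 27.6%, and 31.0% and 35.6%. The membrane protein gene Plp2 had 30.1% and 28.2%, 29.7% and 25.9%, and 31.3% and 24.7%, and the cold-inducible Rbm3 25% and 25.9%, 22.6% and 28.3%, and 25% and 28.3%. Both lines lay below WT in Morf4l2 and Naa10 and overlapped WT in the other six genes, and all 8 had an adjusted p of 1 in both lines. None of the 8 genes had a site of the list accessible on both X chromosomes near: the closest lay 354267 bases from Naa10. A BRG1 site of the active X lay 150 bases from the start of Morf4l2, 409 from that of Nono and 886 from that of Naa10. The part of reads from near-identical copies was not tested.

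The allele balance of 1 of 111 genes at sites (0.901%) was called in line 1. The sites were classed partly from line 1. Sh3kbp1 had a mus share of 2.25% and 2.15% in WT, with 10.3% and 10.8% for line 1 and 1.96% and 3.25% for line 2, from 4.5 and 7 mus reads in WT and 23 and 41.5 in line 1. Only line 1 was high (log2 change of the mus to cas ratio 2.44, SE 0.43, adjusted p = 2.7e-06, against 1.46% of 205 genes called). In line 2 it was 0.35 (SE 0.59, adjusted p = 1), and the lines differed (-2.09, SE 0.42, adjusted p = 0.000179; 0.976% of genes called). The call held without each library in turn and with the block. Total RNA of Sh3kbp1 was 255 and 278 CPM in WT, with 285 and 270 for line 1 and 204 and 223 for line 2 and passed the test in neither line. This is also the gene with the most sites of the list inside it, 6 with its start.

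In line 2 no gene at a site was called by the allele test in edgeR, where the background was 0% of 205 genes. DESeq2 also called 0, and 2 genes, named after their values were seen, had an unadjusted p under 0.05. Mum1l1 had the lowest value in the WT and line 1 libraries and 2 mus reads in each line 2 library (adjusted p = 1). The other was Mid1, at 1.25% and 2.48% in WT, with 2.42% and 1.80% for line 1 and 9.65% and 9.84% for line 2. Both line 2 libraries were high without overlap (log2 change 2.32, SE 0.69, adjusted p = 0.164), and with reads in steps of 0.5 rounded up in place of down, a choice made after seeing the data, the adjusted p was 0.0449. The difference between the lines had an adjusted p of 0.0591 by edgeR, and 0.0256 with the replicate block. Besides its start site of the active X, Mid1 contains 1 site of the list accessible on both X chromosomes and 8 BRG1 sites classed as restored on the inactive X. BRG1 was measured in WT and line 1 only, so these BRG1 sites and the mus share in line 2 come from different lines. None of the 11 genes with 2 or more distal sites contained a restored site of either kind.

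**Figure D5:**
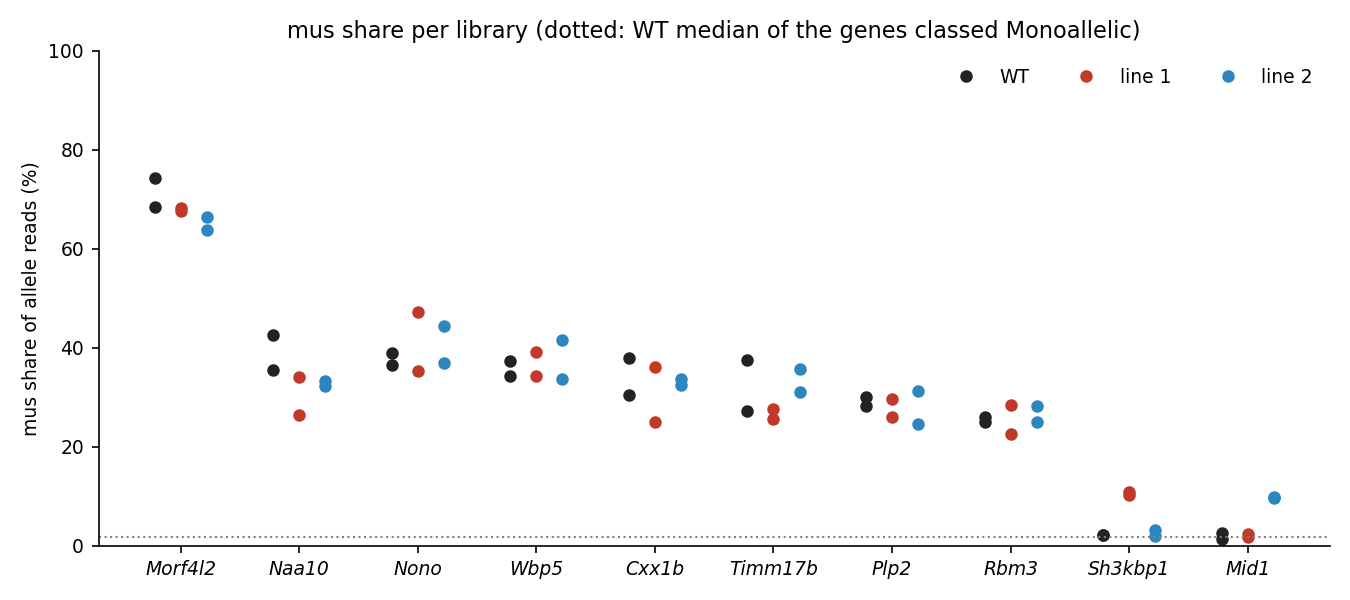
Share of allele reads from the mus X (%) in each of the 6 libraries for the 8 genes at a site that the authors classed Biallelic, for Sh3kbp1 and for Mid1, with the WT median of Monoallelic genes at sites dotted, which lies near the lowest value the table holds. Morf4l2 stands above 60% in every library, Sh3kbp1 stands at 10.3% and 10.8% in line 1 and Mid1 at 9.65% and 9.84% in line 2.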

How the data were processed

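The 6 lists of X-linked intervals and 2 RNA tables were used. Per the submitters' processing notes, ATAC-seq and ChIP-seq reads were processed with Bowtie2 2.2.7, Novoalign 3.00.02, SAMtools 0.1.18, MACS2, bedtools 2.25.0, HOMER and edgeR on mm10, and RNA-seq reads with Trim Galore 0.4.1, TopHat2 and HOMER. How sites and genes were classed and reads assigned to alleles: not given in the sources used here. Deposited lists hold starts and ends without a score. The first RNA table holds estimated counts over exons of 28972 transcripts, not normalized, made by the authors with HOMER per the file headers. The second holds the authors' allele reads, estimated counts in steps of 0.5, for 205 genes. The siRNA samples, the line 2 ATAC-seq samples and the signal tracks were not analysed here.

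Each of 24470 symbols was represented by its transcript with the highest total. Counts were rounded to whole numbers, since they are estimated and not whole as the planned design assumed. They were tested with edgeR 4.0.16 in R 4.3.3 by the quasi-likelihood test (TMM scaling, filterByExpr, 3 groups sharing 1 spread with 3 residual degrees of freedom, common biological coefficient of variation 0.170, Benjamini-Hochberg adjustment over 12910 genes, adjusted p under 0.05). Log2 values of edgeR are fitted fold changes. Allele reads ending in 0.5 were rounded down, and the allele fit had 1 term per library, an allele term and allele-by-group terms, over genes with at least 20 reads. The scripts were tested on simulated data. With 2 libraries a group, errors rest on few samples. Intervals cover counting error only and are exact (Clopper-Pearson) at 95%. Starts lay within 1 kb of a site by the nearest edge. The depth per library was 3812311 to 7067525 exon counts and 14117 to 26764 allele reads. The labels speak of biological replicates.

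Replicate numbers come from the labels. Deviations of libraries with the same number correlated across genes (Pearson r of 0.540 for WT and line 1, 0.594 for WT and line 2, 0.528 for both lines). Depth differs with the number too. The main fits, which give the calls unless stated otherwise, have no term for the number. Only the replicate block pairs the libraries by it. Members and gene lists were chosen with earlier results of these data known. Genes were named by rule: the 8 highest in WT per length, up to 8 called in each direction and line, those called by the allele test, those with the highest mus share, those with several sites, those classed Biallelic and called genes of the lists. Some genes that the rule names are not reported here. Alternatives were DESeq2 1.42.0 and its size factors, no filter, the replicate block, only the compared groups, the longest transcript, other windows, gaps, overlaps and read minimums, and leaving out each library.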

Additional observations from a re-analysis of the deposited data

Results flagged for a closer look

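RNA or allele reads of the following genes at sites differed between the 2 lines by the test of the difference itself (edgeR, line 2 minus line 1, all against the same spread). The RNA of 12 genes differed, and 11 of them are given. RNA was lower in line 2 than in line 1 for Sat1 by a log2 difference of -1.48 (SE 0.21, adjusted p = 0.00788), for Ppp1r3f by -1.25, the Integrator-like gene Ints6l by -0.85, Cask by -0.76, Fam120c by -0.73, Atp6ap2 by -0.70 and the acyl-CoA synthetase gene Acsl4 by -0.52, with adjusted p from 0.00788 to 0.0372. RNA of 4 was higher in line 2: Mid1 by 1.00, Vegfd by 0.66, Tmem164 by 0.53 and Sh3bgrl by 0.49, with adjusted p from 0.0192 to 0.0478. Each of these RNA calls was lost without at least 1 line 2 library: that of Sat1 without line 2 replicate 2 (adjusted p = 0.0763), and the other ten without either of them (0.0666 to 0.282). Those of Acsl4, Atp6ap2, Fam120c, Ints6l, Sh3bgrl, Tmem164 and Vegfd were also lost without either WT library (adjusted p of at most 0.134). Without line 1 replicate 1 those of Sh3bgrl and Vegfd were lost, and without line 1 replicate 2 those of Acsl4, Atp6ap2, Fam120c, Ints6l and Vegfd. The mus to cas ratio of Sh3kbp1 was lower in line 2 by -2.09 (SE 0.42, adjusted p = 0.000179).

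Values of the genes not yet given show where the lines stood against WT. Atp6ap2 had 74.0 and 59.8 CPM in WT, with 81.1 and 83.8 for line 1 and 52.3 and 49.5 for line 2, so the lines lay on opposite sides of WT. Ints6l had 19.2 and 20.8, 25.1 and 30.7, and 15.3 and 15.8 CPM, also on opposite sides. Acsl4 had 177 and 191, 227 and 251, and 163 and 170 CPM, and Sh3bgrl 135 and 140, 102 and 114, and 149 and 154 CPM, likewise on opposite sides. Neither line passed the test against WT in these 4 genes, but with the replicate block line 1 did for Acsl4 (adjusted p = 0.00956), Sh3bgrl (0.0180) and Ints6l (0.0390).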

How the results depend on the processing

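The counts of called genes at sites depend on the fit, and the counts of groups and of BRG1 overlaps depend on the limits chosen. In line 1, 10 genes were called, 41 with the replicate block, 5 with only the compared groups and 1 to 17 with each library left out. In line 2, 1 gene (0.571%) was called against 3.58% of all genes, and 9 with the replicate block against 12.1% of all genes. With no filter on low counts 3 were called, and 3 with only the compared groups. The numbers also changed with a library left out. The share of all genes called is not given for the other fits, so their counts are not set against a background. The allele test in line 2 gave 1 gene in place of 0 with reads ending in 0.5 rounded up, an alternative added after seeing the data. The cause of these changes was not tested. With gaps of up to 50 kb there were 79 groups of sites in place of 46, and overlap with BRG1 was found at 9 sites at 50% of the shorter interval and at 173 within 1 kb, in place of 76. Over all alternatives and named genes, 517 values kept their direction and side of the threshold, 87 lost the call and 7 gained it. Another 21, none of them called under either setting, changed sign. With each library left out, the log2 change of RNA in line 2 ranged from -0.182 to 0.00083 for Fam120c and from -0.285 to 0.0488 for Sat1. The log2 change of the mus to cas ratio in line 1 ranged from -0.662 to 0.0911 for Cxx1b, -0.754 to 0.196 for Mid1, -0.137 to 0.568 for Nono, -0.235 to 0.0279 for Plp2, -0.194 to 0.241 for Rbm3, -0.685 to 0.0269 for Timm17b and -0.0954 to 0.188 for Wbp5. In line 2 it ranged from -0.334 to 0.215 for Cxx1b, -0.049994 to 0.405 for Nono, -0.336 to 0.152 for Plp2, -0.0011 to 0.259 for Rbm3, -0.303 to 0.647 for Sh3kbp1, -0.231 to 0.481 for Timm17b and -0.139 to 0.337 for Wbp5. For Mid1 in line 1 it was also 0.466 with reads ending in 0.5 rounded up and 0.084 with reads not rounded. Where a library left out leaves 1 in its group, that one is assumed to vary like the other groups. Low depth of allele reads limits single genes: 43 of 103 Monoallelic genes at sites were at the lowest value in both WT libraries.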
